A study of Rattus norvegicus with 8 samples.

Results

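The genes of the renin-angiotensin system were examined in glomerular RNA from Dahl rats and from SHR rats. The members were listed by name, with earlier results of these data known: Agt, Ace, Agtr1a, Agtr1b, Agtr2, Enpep, Mme and Atp6ap2. All 8 of 8 members had a probe set, that is, a set of short oligonucleotides on the array that measures a transcript, and together they had 13 of the 31042 probe sets tested. For the 5 members with more than 1 probe set, the brightest on average over the 8 arrays was taken as the main probe set, and the others are given beside it.

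The groups were Dahl rats of 6 weeks, Dahl rats of 4 weeks, SHR rats of 6 weeks and SHR rats of 4 weeks, with 2 rats in each group and 1 array per rat. Dahl stands for the Dahl SS (salt-sensitive) rat, which becomes proteinuric spontaneously, and SHR for the spontaneously hypertensive rat, which does not. All rats were male according to the methods of the study, received no treatment other than a low-salt diet, and had the glomeruli of the left kidney isolated with magnets. Both strains become hypertensive only after the ages sampled here, no strain free of later hypertension was included, and strain differences of any origin are contained in the comparison of Dahl with SHR. Values are log2 intensities, in which a difference of 1 is a 2-fold difference in signal.

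In the renin-angiotensin system, angiotensinogen, the product of Agt, is cleaved to angiotensin I, which angiotensin-converting enzyme (Ace) turns into angiotensin II. Angiotensin II acts mainly through the type 1 receptor, which rodents encode in a pair of genes, Agtr1a and Agtr1b, and also through the type 2 receptor, Agtr2. Aminopeptidase A (Enpep) removes the first residue of angiotensin II, neprilysin (Mme) turns angiotensin I into a shorter peptide, and Atp6ap2, the (pro)renin receptor, is also a subunit of the vacuolar proton pump. In glomeruli, type 1 receptors are known from mesangial cells and podocytes, and aminopeptidase A and neprilysin from podocytes.

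The regions around the start sites of Agtr1b, Agtr1a and Enpep are shown because these are the receptor pair and the member with the smallest p value. They were taken from RefSeq on the assembly GRCr8, where 7 of the 8 members had an entry, and run from 250 bases before the start to 50 bases from it, 5′ to 3′. Capitals mark matches to TATAAA of the TATA box, CCAAT of the box of that name, GGGCGG of the GC box or AGATAA of GATA factors, each searched on both strands, so that a CCAAT on the opposite strand reads ATTGG.
Agtr1b, chr2:104849213-104849512, minus strand: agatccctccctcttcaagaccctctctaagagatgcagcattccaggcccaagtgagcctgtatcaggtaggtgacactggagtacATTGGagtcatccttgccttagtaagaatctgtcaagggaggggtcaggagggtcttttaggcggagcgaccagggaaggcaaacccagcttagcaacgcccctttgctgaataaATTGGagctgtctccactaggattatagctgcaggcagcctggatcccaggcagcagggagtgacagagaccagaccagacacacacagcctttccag
Agtr1a, chr17:34435383-34435682, minus strand: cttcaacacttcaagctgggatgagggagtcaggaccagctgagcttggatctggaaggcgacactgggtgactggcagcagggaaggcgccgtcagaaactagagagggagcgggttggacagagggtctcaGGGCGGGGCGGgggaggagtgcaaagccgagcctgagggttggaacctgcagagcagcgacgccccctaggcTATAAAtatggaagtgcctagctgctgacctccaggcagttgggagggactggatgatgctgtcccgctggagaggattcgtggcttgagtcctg
Enpep, chr2:220526169-220526468, minus strand: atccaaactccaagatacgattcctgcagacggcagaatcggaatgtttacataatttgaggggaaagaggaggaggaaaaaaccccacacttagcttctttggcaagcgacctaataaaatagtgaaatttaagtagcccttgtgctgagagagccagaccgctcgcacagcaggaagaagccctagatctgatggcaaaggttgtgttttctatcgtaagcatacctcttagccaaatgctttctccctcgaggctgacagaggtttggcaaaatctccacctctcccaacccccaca
In the window of Agtr1b, 2 matches were found, both to CCAAT on the opposite strand, at -163 to -159 and at -48 to -44 from the start. The window of Agtr1a held TATAAA at -45 to -40 and 2 GGGCGG that overlap by 1 base, and that of Enpep held no match. Of 33469 promoters of the same length, TATAAA was in 14.2%, CCAAT in 37.5%, GGGCGG in 33.1% and AGATAA in 11.6%. The GC content was 53.7% for Agtr1b, 60.7% for Agtr1a and 47.0% for Enpep. Agtr1a and Agtr1b thus shared no motif among those searched, which says only what letters stand in these windows. The window of Agtr2, not shown, held a CCAAT on the opposite strand at -168 to -164.

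The median value per array lay between 4.11 and 4.16, and the correlation across probe sets was 0.989 to 0.997 between the 2 arrays of a group, and 0.950 to 0.994 between groups. The number of arrays limits the precision. Differences were estimated with limma across all probe sets, and p values were adjusted over all of them (Benjamini and Hochberg, threshold 0.05). As replicates are separate rats, the errors given here contain the spread between animals. Averaged over both ages, 34.7% of all probe sets differed between Dahl and SHR rats, 10.6% higher and 24.2% lower in Dahl rats, with a median log2 difference of -0.05. The higher ones made up 30.4% of these calls, against 47.7% after quantile normalization (median -0.01). Of the 8 members, 3 were higher in Dahl rats (Enpep, Agtr1b and Mme) and 1 was lower (Agtr2), with a median log2 difference of 0.14. With 8 members, no test sets these shares apart from those of the array.

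**Figure D1:**
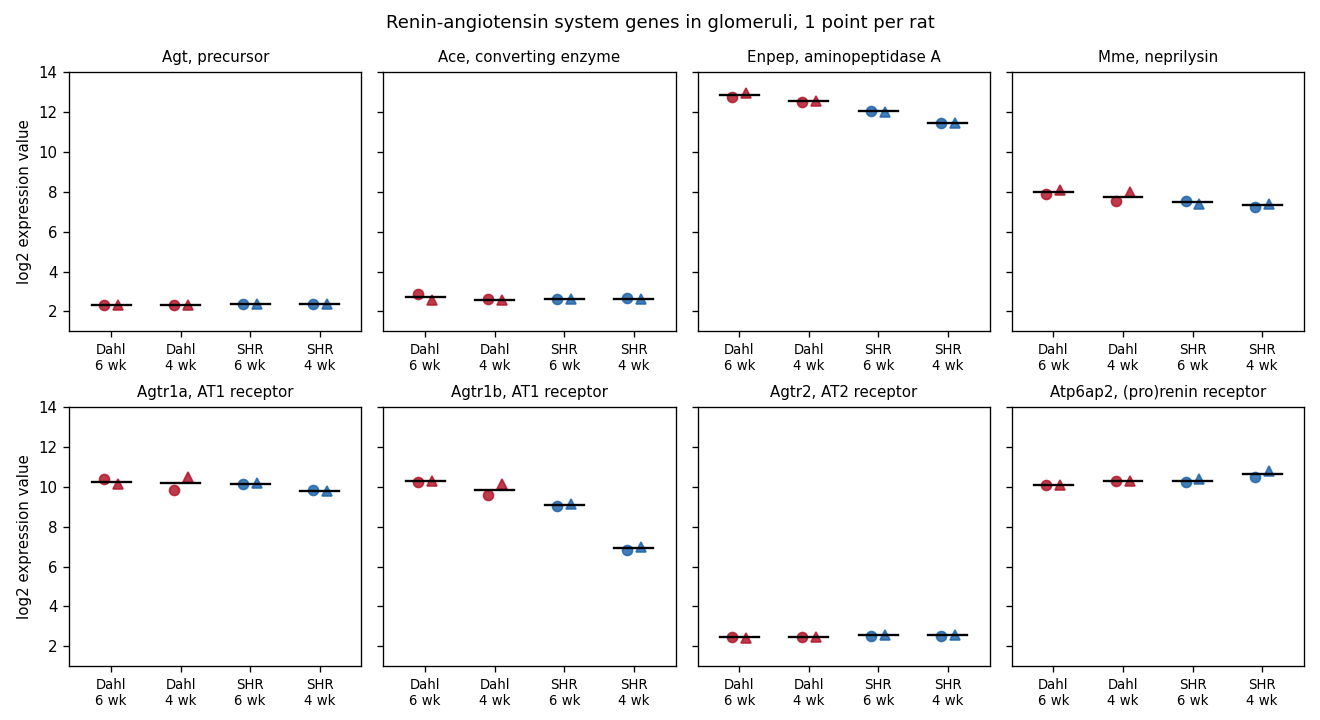
Log2 intensity of the main probe set of each member in the 8 arrays, with Dahl rats in red and SHR rats in blue, circles for replicate 1, triangles for replicate 2 and a bar for the mean of the 2 rats of a group. Agtr1b and Enpep lie higher in all Dahl rats than in any SHR rat, and Agt, Ace and Agtr2 lie near the bottom of the scale in all rats.

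Among the receptors, Agtr1b, the type 1b receptor, was higher in Dahl glomeruli at both ages. Its log2 values in Dahl rats were 10.25 and 10.32 at 6 weeks and 9.60 and 10.13 at 4 weeks. In SHR rats they were 9.06 and 9.14 at 6 weeks and 6.85 and 6.99 at 4 weeks. All Dahl rats thus lay above all SHR rats, and the SHR rats of 4 weeks lay apart from all others. Agtr1b averaged 10.07 ± 0.33 in Dahl rats and 8.01 ± 1.26 in SHR rats (SD, n = 4 each). Over both ages the log2 difference was 2.07 (standard error 0.13, 95% interval 1.74 to 2.39, limma adjusted p = 0.00358), which is 4.18-fold. The call was made under all 18 alternatives, with an adjusted p of at most 0.0495.

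The strain difference of Agtr1b was 1.19 at 6 weeks (standard error 0.18, 2.28-fold, limma adjusted p = 0.0459) and 2.94 at 4 weeks (standard error 0.18, 7.69-fold, adjusted p = 0.00471). The difference between these differences, the interaction of strain and age, was -1.76 (standard error 0.25), with an unadjusted p of 0.00101 but an adjusted p of 0.0882 from limma, so it did not pass the threshold. It passed without Dahl 4 weeks replicate 1 (adjusted p = 0.0364). At 6 weeks the call was lost without either Dahl rat of that age and without any one of the SHR rats, with an adjusted p of up to 0.161 over the alternatives.

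**Figure D2:**
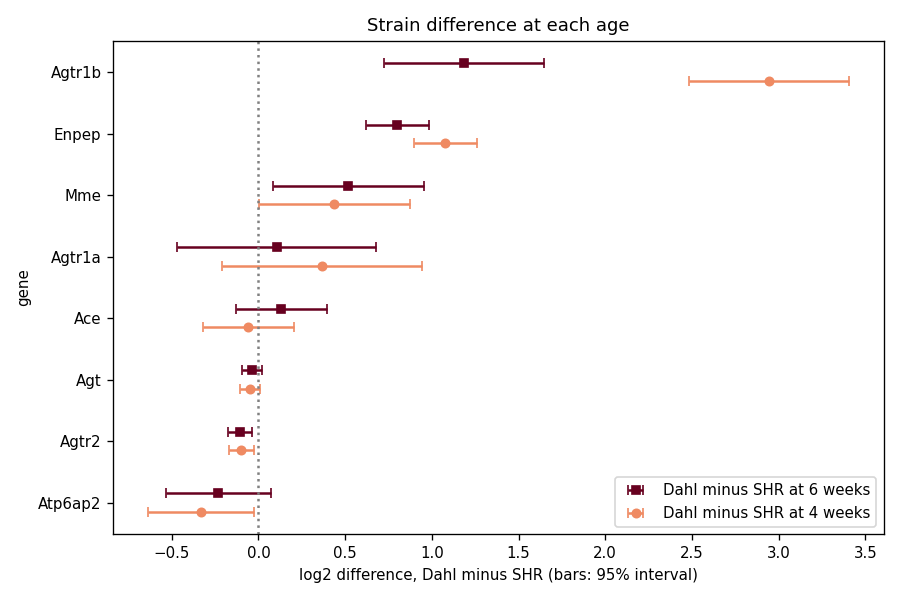
Log2 difference of Dahl minus SHR for the main probe set of each member at 6 weeks (squares) and at 4 weeks (circles), with 95% intervals from limma. Agtr1b lies at 1.19 at 6 weeks and 2.94 at 4 weeks, and Enpep at 0.80 and 1.08, while the other members lie within 0.6 of 0.

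Agtr1a, the type 1a receptor, was bright in both strains, whose values overlapped. Its main probe set had log2 values of 10.37 and 10.17 in Dahl rats of 6 weeks and 9.85 and 10.51 in those of 4 weeks, against 10.13 and 10.20 in SHR rats of 6 weeks and 9.85 and 9.78 in those of 4 weeks. Dahl 4 weeks replicate 1 lay below both SHR rats of 6 weeks. Agtr1a averaged 10.22 ± 0.29 in Dahl rats and 9.99 ± 0.21 in SHR rats (SD, n = 4 each), a log2 difference of 0.24 (95% interval -0.17 to 0.64, limma adjusted p = 0.264), so a difference of up to 0.64 remains within the interval. Without Dahl 4 weeks replicate 1 it was 0.40 and passed the threshold (adjusted p = 0.0375), as did the difference at 4 weeks (0.69, adjusted p = 0.0484). A dimmer probe set of Agtr1a had means of 7.85 in Dahl rats and 7.16 in SHR rats, a difference of 0.69 (adjusted p = 0.0895). In SHR rats, Agtr1b was higher at 6 weeks than at 4 weeks by 2.18, and the probe sets of Agtr1a differed between these ages by 0.36 and 0.09. Agtr1a and Agtr1b are related genes that both encode a type 1 receptor. Whether probes of one also bind RNA of the other was not tested.

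Agtr2, the type 2 receptor, was at low signal in all rats, and 21.6% of all probe sets were dimmer than its main probe set. In Dahl rats its log2 values were 2.46 and 2.43 at 6 weeks and 2.47 and 2.44 at 4 weeks, and in SHR rats 2.53 and 2.56 at 6 weeks and 2.54 and 2.57 at 4 weeks. All Dahl rats lay below all SHR rats. Agtr2 was lower in Dahl rats by a log2 difference of -0.10 (standard error 0.019, limma adjusted p = 0.0254), with means of 2.45 ± 0.017 in Dahl rats and 2.55 ± 0.019 in SHR rats (SD, n = 4 each). Of the 7760 probe sets with a mean value under 2.60, 36.6% were called lower in Dahl rats, with a median log2 difference of -0.058. The dimmer probe set of Agtr2 differed by -0.02 (adjusted p = 0.514). The call for Agtr2 was made under 8 of 17 alternatives, among them the methods' unpaired test both with and without adjustment of p. The call was lost without any one array other than Dahl 6 weeks replicate 1 or SHR 4 weeks replicate 1.

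Among the peptidases, Enpep, which encodes aminopeptidase A, was the brightest member and had the smallest p value. The log2 values of Enpep were 12.76 and 12.95 in Dahl rats of 6 weeks and 12.51 and 12.57 in Dahl rats of 4 weeks. In SHR rats they were 12.08 and 12.03 at 6 weeks and 11.48 and 11.44 at 4 weeks. No Dahl rat overlapped with an SHR rat, and within each strain both rats of 6 weeks lay above both rats of 4 weeks. Enpep averaged 12.70 ± 0.20 in Dahl rats and 11.76 ± 0.35 in SHR rats (SD, n = 4 each), a log2 difference of 0.94 (standard error 0.049, 95% interval 0.81 to 1.07, limma adjusted p = 0.00274) or 1.92-fold. The call was made under all 18 alternatives, with an adjusted p of at most 0.0187.

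The dimmer probe set of Enpep showed a larger strain difference. Its log2 values were 7.85 and 8.49 in Dahl rats of 6 weeks and 7.73 and 7.63 in those of 4 weeks, against 5.85 and 6.01 in SHR rats of 6 weeks and 5.68 and 5.48 in those of 4 weeks. The log2 difference over both ages was 2.17 (standard error 0.16, limma adjusted p = 0.0052), or 4.50-fold, so both probe sets gave the same direction and different sizes. The dimmer probe set differed by 2.24 at 6 weeks (limma adjusted p = 0.0244) and by 2.10 at 4 weeks (adjusted p = 0.0128). By the main probe set, Enpep differed by 0.80 at 6 weeks (1.74-fold, adjusted p = 0.0199) and by 1.08 at 4 weeks (2.11-fold, adjusted p = 0.00524). The call at 6 weeks was lost without any one of the SHR rats.

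**Figure D3:**
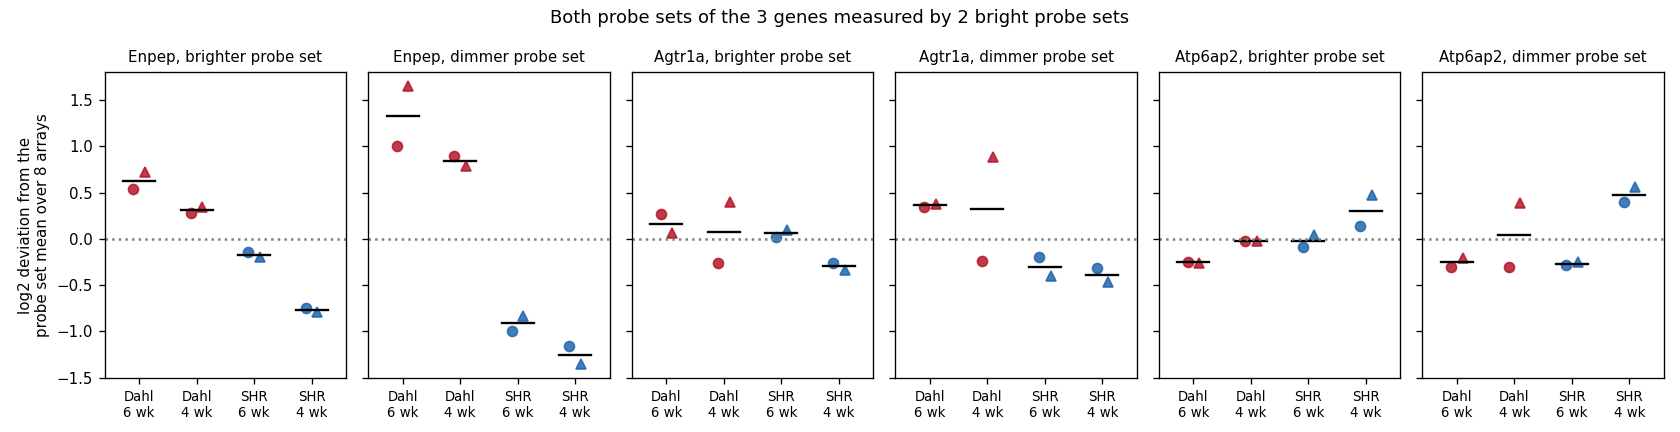
Deviation of each rat's log2 value from the mean of that probe set over the 8 arrays, for the brighter and the dimmer probe set of Enpep, Agtr1a and Atp6ap2, with colours, symbols and bars as in the plot of member values. Both probe sets of Enpep lie higher in all Dahl rats, by 0.94 and 2.17 on average, whereas for Agtr1a and Atp6ap2 the strains overlap on both probe sets.

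Mme, which encodes neprilysin, was higher in Dahl rats by a smaller amount. Its log2 values were 7.92 and 8.08 in Dahl rats of 6 weeks and 7.53 and 7.99 in those of 4 weeks, against 7.55 and 7.40 in SHR rats of 6 weeks and 7.27 and 7.38 in those of 4 weeks. The strains overlapped, since Dahl 4 weeks replicate 1 lay just below SHR 6 weeks replicate 1. Mme averaged 7.88 ± 0.24 in Dahl rats and 7.40 ± 0.12 in SHR rats (SD, n = 4 each), and the log2 difference was 0.48 (95% interval 0.17 to 0.79, limma adjusted p = 0.0396), or 1.39-fold. The call was lost without any one array other than Dahl 4 weeks replicate 1, with an adjusted p of up to 0.117 over the alternatives. The differences at 6 weeks (0.52, adjusted p = 0.122) and at 4 weeks (0.44, adjusted p = 0.133) did not pass the threshold.

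Ace, the converting enzyme, and Agt, the precursor of the peptides, were both at low signal. For Ace, 26.5% of all probe sets were dimmer, and its log2 values were 2.90 and 2.60 in Dahl rats of 6 weeks and 2.62 and 2.55 in those of 4 weeks, against 2.61 and 2.62 in SHR rats of 6 weeks and 2.67 and 2.62 in those of 4 weeks. The strains overlapped, and the log2 difference was 0.04 (95% interval -0.15 to 0.22, limma adjusted p = 0.697). The dimmer probe set of Ace ran from 2.24 to 2.26 in Dahl rats and from 2.29 to 2.30 in SHR rats, with all Dahl rats below all SHR rats, a log2 difference of -0.05 that did not pass the threshold (adjusted p = 0.0643). For Agt, 15.7% of probe sets were dimmer, and the values ran from 2.30 to 2.33 in Dahl rats and from 2.36 to 2.37 in SHR rats. All Dahl rats lay below all SHR rats for Agt, by -0.04 (adjusted p = 0.0827), a size also common among dim probe sets. At signals this low, no order of levels between the strains is read for Ace or Agt.

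Atp6ap2, the (pro)renin receptor, was bright in all rats. Its log2 values were 10.09 and 10.08 in Dahl rats of 6 weeks and 10.31 and 10.31 in those of 4 weeks, against 10.25 and 10.38 in SHR rats of 6 weeks and 10.47 and 10.81 in those of 4 weeks. Within each age both Dahl rats lay below both SHR rats, although the strains overlapped across ages. Atp6ap2 averaged 10.20 ± 0.13 in Dahl rats and 10.48 ± 0.24 in SHR rats (SD, n = 4 each), a log2 difference of -0.28 (95% interval -0.50 to -0.07) that did not pass the threshold (limma adjusted p = 0.0536). It passed without SHR 4 weeks replicate 1 (-0.37, adjusted p = 0.0219), as did the difference at 4 weeks (-0.50, adjusted p = 0.0368). The dimmer probe set differed by -0.21 (adjusted p = 0.32).

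At 6 weeks, 3.28% of all probe sets differed between the strains, 1.65% higher and 1.63% lower in Dahl rats, and at 4 weeks 12.0%, with 5.63% higher and 6.41% lower. At each age 2 of the 8 members were called, Agtr1b and Enpep, both higher in Dahl rats. For the interaction of strain and age, 0.519% of probe sets and none of the 8 members passed the threshold in limma. An unadjusted p under 0.05 was found for 2 members (Agtr1b and Enpep) and for 3404 of the 31042 probe sets. For Enpep the interaction was -0.28 by the main probe set and had the opposite sign, 0.14, by the dimmer one (limma adjusted p = 0.408 and 0.988).

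With age, 2 members were higher at 6 weeks than at 4 weeks in SHR rats, against 2.42% of all probe sets called there, 1.50% higher and 0.915% lower. Agtr1b was higher by 2.18 (standard error 0.18, 4.52-fold, limma adjusted p = 0.0157) and Enpep by 0.60 (standard error 0.070, 1.51-fold, adjusted p = 0.0302). The call for Agtr1b was lost without any one SHR rat, and that for Enpep without any one SHR rat or either Dahl rat of 4 weeks. The dimmer probe set of Enpep differed by 0.35 (adjusted p = 0.601). In Dahl rats, 0.0805% of probe sets and none of the members were called in limma. An unadjusted p under 0.05 was found in Dahl rats for 1 member, Enpep, and for 2718 of the 31042 probe sets. There Enpep differed by 0.32 between 6 and 4 weeks (adjusted p = 0.313, but 0.0402 without Dahl 6 weeks replicate 1) and Agtr1b by 0.42 (adjusted p = 0.613). Atp6ap2 had lower values at 6 weeks in both strains, with log2 differences of -0.23 in Dahl rats (adjusted p = 0.69) and -0.33 in SHR rats (adjusted p = 0.291), neither past the threshold.

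Markers of glomerular cells also differed between the strains. Among all probe sets, 10.6% were higher and 24.2% lower in Dahl rats over both ages, and no test set the marker counts apart from these shares. Of 14 podocyte markers measured, 5 were higher and none was lower in Dahl rats, with a median log2 difference of 0.34, and in the next 2 lists of glomerular cells the counts were 9 higher and 1 lower of 15 mesangial and smooth muscle markers (median 0.74) and 10 higher and none lower of 16 endothelial markers (median 0.53). Examples were Nes (1.36) and Synpo (0.59) for podocytes, Tagln (1.20) and Des (1.68) for mesangial and smooth muscle cells, and Ramp2 (1.14) and Icam2 (0.76) for endothelium. Of 27 proximal tubule markers, 2 were higher, among them Slc17a3 (4.35), and 4 lower, among them Dpep1 (-2.95), with a median of -1.06. That median rests in part on Dahl 6 weeks replicate 2, without which it was -0.65, with 2 higher and 8 lower. Of 15 distal nephron markers, none was higher and 5 were lower, among them Scnn1a (-1.27) and Calb1 (-2.11), with a median of -0.80 (1 lower and a median of -0.55 without that rat). Without that rat, markers called higher were 3 for podocytes (median 0.23), 7 for mesangial and smooth muscle cells (0.69) and 5 for endothelium (0.51), and none was lower. The number of all probe sets called also changes when an array is left out, so a fall in these counts cannot be assigned to that rat's cells. Scnn1a, the distal nephron example above, had 5.31 and 5.10 in SHR rats of 4 weeks and 3.44 and 3.07 in those of 6 weeks. In Dahl rats it ran from 2.89 to 3.03. A dimmer probe set of Scnn1a had means of 2.45 in Dahl rats and 2.54 in SHR rats. In bulk RNA of isolated glomeruli, more cells of a type and more RNA per cell cannot be told apart.

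A score for each list and array, the median over the list of how far each gene stood from its own 8-array mean, shows how these markers stood beside the members. The podocyte score was 0.10 and 0.46 in Dahl rats of 6 weeks and -0.05 and 0.23 in those of 4 weeks, against -0.07 and -0.13 in SHR rats of 6 weeks and -0.15 and -0.36 in those of 4 weeks. The summed unlogged signal of the podocyte markers ran from 23476 to 32230 in Dahl rats and from 17240 to 23573 in SHR rats. Podocyte markers were therefore higher in the strain in which Enpep and Mme were higher, and their part in these results was not tested. The summed signal of the proximal tubule markers was 29550 in Dahl 6 weeks replicate 2 and ran from 77754 to 87608 in the other Dahl rats. In SHR rats it ran from 99967 to 127164. Of the 27 tubule markers, 4 were called lower and 2 higher in Dahl rats. Aminopeptidase A and neprilysin are also known from the brush border of proximal tubules, and the part of tubule RNA in their values was not tested. None of the podocyte and proximal tubule markers had a mean value under 2.60.

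The scores of the leukocyte and mesangial lists were lowest in the SHR rats of 4 weeks, as Agtr1b was, but not every marker followed. Mrc1, a leukocyte marker, was highest there, with 7.11 and 7.27 against 6.51 and 6.63 in SHR rats of 6 weeks. Mrc1 ran from 4.63 to 5.64 in Dahl rats. Myh11, a smooth muscle marker, had 7.10 and 7.56 there, against 5.92 and 5.04 in SHR rats of 6 weeks. Mrc1 and Myh11 were named after their values were seen. The leukocyte score was 0.58 and 1.05 in Dahl rats of 6 weeks and -0.01 and 0.01 in those of 4 weeks, against 0.44 and 0.29 in SHR rats of 6 weeks and -1.29 and -1.77 in those of 4 weeks. The summed signal of the 15 leukocyte markers ran from 2160 to 4641 in Dahl rats and from 790 to 3149 in SHR rats, and 4 of them had a mean value under 2.60. Of these 15 markers, 9 were higher and 4 lower in Dahl rats over both ages, such as Csf1r (1.31) and Cd3e (-0.44), and without Dahl 6 weeks replicate 2 the counts were 5 higher and 2 lower. The mesangial score was 0.33 and 0.40 in Dahl rats of 6 weeks and 0.17 and 0.43 in those of 4 weeks, against -0.14 and -0.10 in SHR rats of 6 weeks and -0.43 and -0.38 in those of 4 weeks. The summed mesangial signal was 6013 to 8044 in Dahl rats and 3237 to 4576 in SHR rats. The part of these cells in the level of Agtr1b was not tested.

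**Figure D4:**
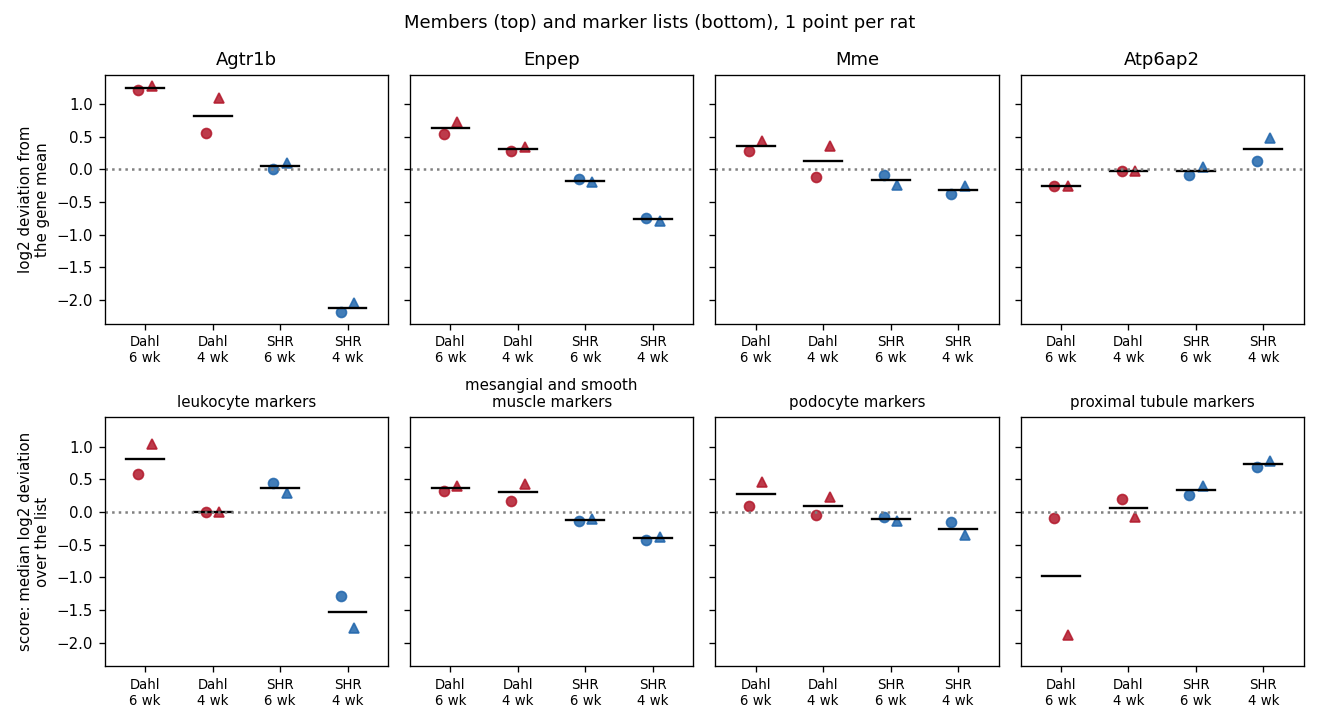
Deviation of each rat's log2 value from the gene's mean over the 8 arrays for Agtr1b, Enpep, Mme and Atp6ap2 (top), above the scores of 4 marker lists in the same rats on the same log2 scale (bottom), with colours, symbols and bars as in the plot of member values. The leukocyte and mesangial scores are lowest in the SHR rats of 4 weeks, where Agtr1b is also lowest, and the proximal tubule score is lowest in Dahl 6 weeks replicate 2 (-1.89).

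Of 22 other genes of the pathway, 17 were measured, and 2 were higher and 3 lower in Dahl rats, with a median log2 difference of -0.07 (1 and 3 without Dahl 6 weeks replicate 2). Over all probe sets, 10.6% were higher and 24.2% lower in Dahl rats. No test set the counts of this list and of the gene lists that follow apart from these shares. Klk1, tissue kallikrein, which releases kinins and is made in the distal nephron, was lower by a log2 difference of -1.93 (standard error 0.37, limma adjusted p = 0.0257). Its values were 6.01 and 4.77 in Dahl rats of 6 weeks and 6.53 and 5.72 in those of 4 weeks, against 7.76 and 7.08 in SHR rats of 6 weeks and 7.84 and 8.09 in those of 4 weeks. All Dahl rats lay below all SHR rats for Klk1, and distal nephron markers had a median of -0.80 over the same rats, whose part was not tested. Nln, neurolysin, a peptidase that can cleave angiotensin I, was higher by 0.57, and Arap1, a GTPase-activating protein, by 0.37. Ctsa, a lysosomal carboxypeptidase that acts on angiotensin I, was lower by -0.37. The other gene called lower was Lnpep, the aminopeptidase that binds angiotensin IV, which was named after its values were seen. Lnpep differed by -0.13 at low signal. Its dimmer probe set did not repeat this, with means of 2.59 in Dahl rats and 2.58 in SHR rats. Adjusted p values for Arap1, Nln, Ctsa and Lnpep lay between 0.0336 and 0.0491.

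Of 27 genes that act downstream of the type 1 receptor, 25 were measured, and 3 were higher and 1 was lower in Dahl rats, with a median of 0.16 (2 and 1, with a median of 0.11, without Dahl 6 weeks replicate 2). Cybb, the catalytic subunit of the phagocyte NADPH oxidase, was higher by 1.92 (standard error 0.13, limma adjusted p = 0.00473). Cybb had log2 values of 7.48 and 7.72 in Dahl rats of 6 weeks and 6.26 and 6.20 in those of 4 weeks, against 7.07 and 6.55 in SHR rats of 6 weeks and 3.13 and 3.22 in those of 4 weeks. Like Agtr1b and the leukocyte score, Cybb, which leukocytes express, was lowest in the SHR rats of 4 weeks by this main probe set. Rhoa, the small GTPase, was higher by 0.59 (adjusted p = 0.00648). Plcb4, a phospholipase C, was higher by 0.39 over both ages (adjusted p = 0.0328), with opposite signs at the 2 ages. It differed by 1.00 at 6 weeks (8.65 and 8.93 in Dahl rats against 7.70 and 7.87 in SHR rats, adjusted p = 0.034) and by -0.22 at 4 weeks (7.99 and 8.14 in Dahl rats against 8.34 and 8.22 in SHR rats, adjusted p = 0.238). The interaction for Plcb4 did not pass the threshold (1.22, adjusted p = 0.0862). Nfatc1, a transcription factor controlled by calcineurin, was lower by -0.54 (adjusted p = 0.0256). A dimmer probe set of Rhoa (0.88) and one of Cybb (0.72) gave the same direction as the main ones over both ages. At 4 weeks that of Cybb was at low signal, with 2.71 and 2.74 in Dahl rats against 2.72 and 2.74 in SHR rats. At 6 weeks it had 4.13 and 4.44 in Dahl rats against 2.75 and 2.91 in SHR rats. The dimmer probe set of Cybb thus did not repeat the strain difference of the main one at 4 weeks. A dimmer probe set of Plcb4 differed by 0.10 (limma adjusted p = 0.265).

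**Figure D5:**
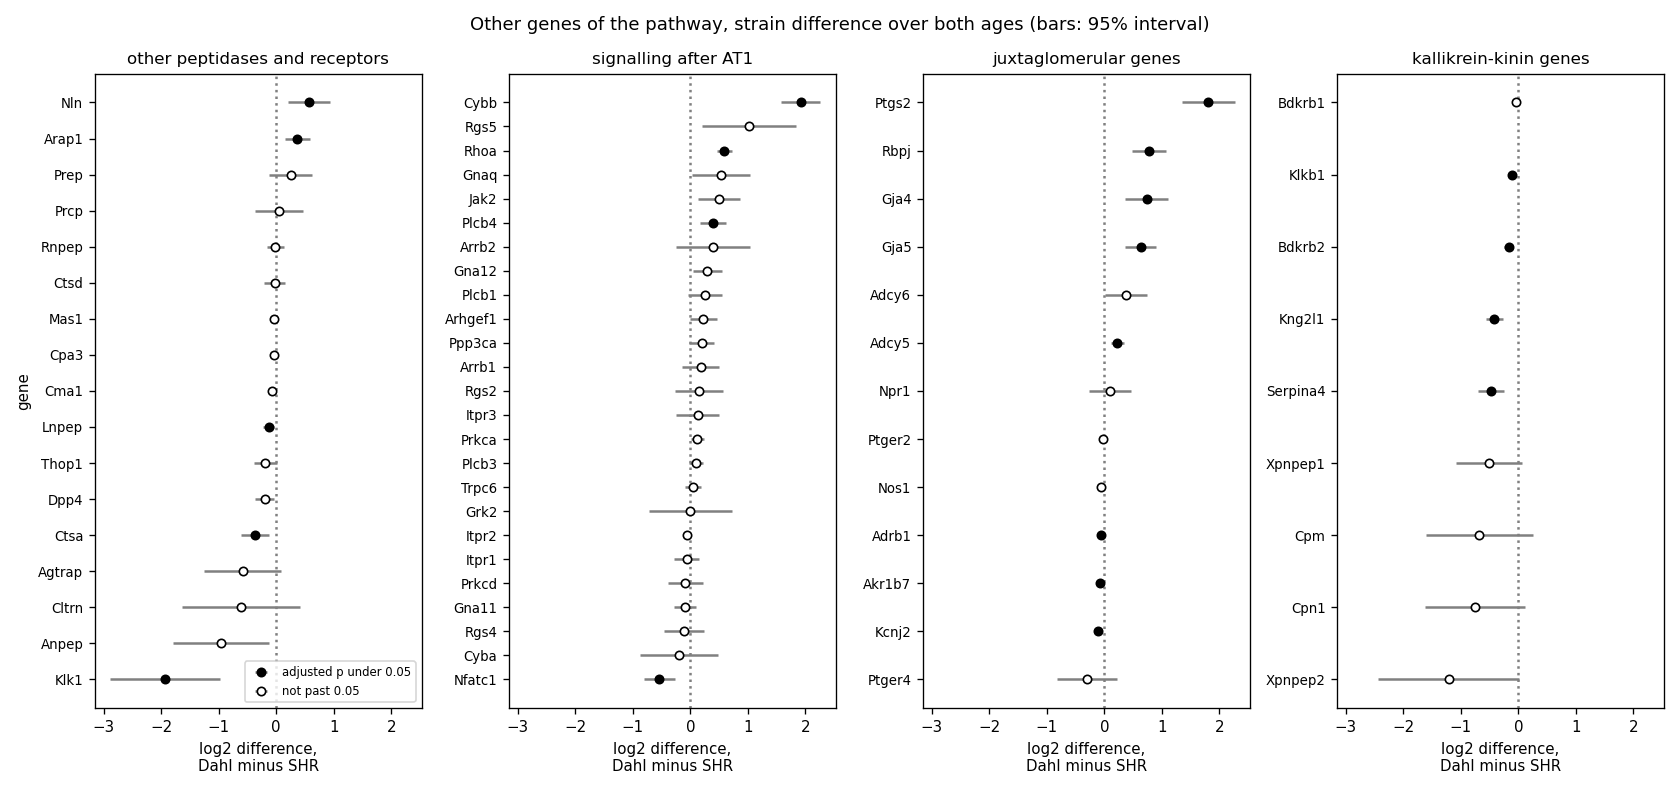
Log2 difference of Dahl minus SHR over both ages, with 95% intervals from limma, for all measured genes of the 4 other pathway lists. Filled points passed the adjusted threshold of 0.05 and open points did not. Cybb (1.92) and Ptgs2 (1.81) lie highest, and Klk1 (-1.93) lies lowest.

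Of 14 genes of the juxtaglomerular cells and the control of their secretion, 13 were measured, and 5 were higher and 3 lower in Dahl rats, with a median of 0.10. Without Dahl 6 weeks replicate 2 they were 4 and 1, and the median was -0.01. Ptgs2, cyclooxygenase 2, was higher by 1.81 (standard error 0.18, limma adjusted p = 0.00826). The log2 values of Ptgs2 were 7.16 and 7.28 in Dahl rats of 6 weeks and 8.18 and 8.23 in those of 4 weeks, against 6.35 and 5.60 in SHR rats of 6 weeks and 5.73 and 5.93 in those of 4 weeks, so that no Dahl rat overlapped with an SHR rat. Rbpj, a transcription factor of Notch signalling, was higher by 0.77, and Gja5, connexin 40, by 0.63 (adjusted p = 0.0157 and 0.0192). The 3 genes that were lower, Kcnj2 (-0.11), Akr1b7 (-0.07) and Adrb1 (-0.06), differed by amounts like those of dim probe sets, and 5 of the 13 genes had a mean value under 2.60. Akr1b7 and Adrb1 were named after their values were seen. Of 12 genes of the kallikrein and kinin system, 9 were measured, and none was higher and 4 were lower, with a median of -0.48. These were Serpina4, which encodes kallistatin (-0.48), the kininogen gene Kng2l1 (-0.42), the bradykinin receptor gene Bdkrb2 (-0.17) and Klkb1, plasma kallikrein (-0.11). All 4 lay at low signal, with mean values of 3.19 for Serpina4, 3.46 for Kng2l1, 2.80 for Bdkrb2 and 2.41 for Klkb1, and 2 of the 9 genes had a mean value under 2.60, where 36.6% of probe sets were called lower. Without Dahl 6 weeks replicate 2, 1 of the 9 was lower and the median was -0.41.

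The genes whose log2 values followed those of a member most closely over the 8 arrays were sought among 4357 other genes with a standard deviation of at least 0.3 (4358 for Agtr2). For Enpep these were Nucb2 (Pearson r = 0.996), Nes (0.994) and Ifgga2l1 (0.994), and for Agtr1b Lmo7 (1.00), Fgl2 (0.994) and Fbln5 (0.993). For Agtr2 they were Smad9 (0.977), Cmc1 (0.976) and Pdss2 (0.975). The 8 arrays fall into 4 groups, so these correlations mostly describe the group means, and they were chosen as the highest of all.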

How the data were processed

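Glomerular RNA of 8 rats was measured on Affymetrix rat genome arrays, 1 array per rat. As deposited, the values are log2 intensities, made by the authors with background correction, normalization across arrays and 1 value per probe set. RMA and GCRMA both stand in their processing notes, without versions, and the one used for these values is not stated there. The values were analysed unchanged, so strain differences rest on that step.

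All 31042 probe sets other than the 57 controls entered the tests. The platform annotation gave 1 gene for 20826, several for 436 and none for 9780. The means of the 4 groups were estimated with limma 3.58.1 under R 4.3.3 (4 residual and 0.921 prior degrees of freedom), and 6 contrasts were taken: Dahl minus SHR over both ages and at each age, age (6 weeks minus 4 weeks) within Dahl and within SHR, and the strain by age interaction. The fit was tested on simulated data. The members, lists, tests and alternatives were chosen with earlier results of these data known, and the members' p values are not independent of them.

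Beside the members, the text names up to 4 genes of each pathway list that passed the threshold over both ages, up to 2 markers of each cell type, both by the smallest p, and the 3 nearest genes to the 3 members of smallest p. Other settings tried were median centring, quantile normalization, limma with trend and robust options, the replicate number as a block and dim probe sets left out. Further ones were other choices of probe set, an additive model, the methods' unpaired test with and without adjustment, and each array left out in turn. Without adjustment, an unadjusted p under 0.05 counted as a call.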

Additional observations from a re-analysis of the deposited data

Results flagged for a closer look

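Ace in SHR rats was picked out because 1 rat stood apart from the other 3. SHR 4 weeks replicate 1 had a log2 value of 2.67, against 2.61 to 2.62 in the others, and its gap was 0.839 of the range of the 4 rats, above Dixon's 95% critical value for 4 values. Chance alone picks out about 5% of groups at this limit, and 16 groups were examined. All of these values lie at low signal.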

How the results depend on the processing

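Enpep and Agtr1b were called over both ages and at 4 weeks under every alternative run. Of the members' 726 results under alternatives, 643 kept their direction and side of the threshold, 41 lost the call, 17 gained one and 25 changed sign. These counts include the unadjusted unpaired test. They also include the choice of probe set by highest median, which repeats the main fit where it gives the same probe set. The cause of the changes was not tested.

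Over both ages, 4 members were called, against 2 after quantile normalization and 6 with median centring or with an intensity trend. The count at 4 weeks was 2, against 4 with an intensity trend. For age in SHR rats it was 2, against 1 with the mean of all probe sets. For the interaction it was 0, against 1 without dim probe sets. Probe sets called over both ages were 10787, against 4740 after quantile normalization and 4776 without dim probe sets, and 15891 with median centring and 15164 with an intensity trend. With an intensity trend they were 10134 in place of 3738 at 4 weeks and 8488 in place of 1017 at 6 weeks. Without dim probe sets, age gave 47 in place of 25 in Dahl rats and 1205 in place of 751 in SHR rats.

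Replicate numbers do not pair the rats, since same-numbered deviations correlated at -0.225 to 0.236 over 6 pairs of groups. With the replicate number as a block, members called were 2 over both ages, 1 at 6 weeks and 1 for age in SHR rats. Probe sets called with the block were 5598 for the 2 ages together, 2028 for 4 weeks alone, 339 for 6 weeks alone, 3 and 360 for age in Dahl and SHR rats, and 31 for the interaction (161 without it).

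The lists without Dahl 6 weeks replicate 2 were chosen after seeing the data. Their counts also follow how many probe sets are called in that fit, so changes in them cannot be assigned to that rat alone. With 1 array left out, the lone rat of a group is assumed to vary like the others. Members called were then 2 to 4 over both ages, 0 to 2 at 6 weeks, 0 to 1 and 0 to 2 for age in Dahl and SHR rats, and 0 to 1 for the interaction. Probe sets called were 2286 to 11471 for the 2 ages together, 768 to 3905 for 4 weeks alone, 63 to 3352 for 6 weeks alone, 0 to 1043 and 64 to 940 for age in Dahl and SHR rats, and 7 to 540 for the interaction.

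Signs changed for small differences. After quantile normalization, Agt was 0.0206 for the 2 ages together, 0.0133 for 4 weeks and 0.0280 for 6 weeks, Ace 0.0167 at 4 weeks, and Agtr2 0.00967 for age in SHR rats. With median centring, Ace was -0.00318 over both ages, Agt -0.00385 for age in SHR rats and Agtr2 0.00534 for the interaction. With the mean of all probe sets, Ace was -0.00601 over both ages and Agtr2 0.000177 for age in SHR rats. With 1 array left out, Ace ran from -0.0394 to 0.112 over both ages and from -0.0194 to 0.282 at 6 weeks. Agt for age in SHR rats ran from -0.00532 to 0.0110, Agtr1a from -0.235 to 0.422 for age in Dahl rats and from -0.590 to 0.0664 for the interaction. Agtr2 ran from -0.0274 to 0.00124 for age in Dahl rats, from -0.0217 to 0.0128 for age in SHR rats and from -0.0259 to 0.00865 for the interaction. The interaction ran from -0.0699 to 0.270 for Atp6ap2 and from -0.152 to 0.313 for Mme.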

Other observations

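In Dahl 6 weeks replicate 2, 3 brush border genes of the pathway lists were low while Enpep and Mme were at their highest. Anpep, aminopeptidase N, had a log2 value of 7.67 there, against 9.05 in the other Dahl rat of that age and 9.56 and 9.36 in Dahl rats of 4 weeks. Cltrn, collectrin, had 10.56, against 12.25, 12.36 and 12.73 in the same rats, and Xpnpep2, an aminopeptidase P, 5.27 against 7.29, 7.84 and 8.03. Dpp4, another brush border peptidase, was not low there, with 11.29 against 11.16, 11.07 and 11.22. The proximal tubule score of that rat was -1.89. Its Enpep value of 12.95 and its Mme value of 8.08 were the highest of the 8 arrays. These genes were chosen after their values were seen, and no test was made, so the part of tubule RNA in Enpep and Mme was not tested.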
